A study of Mus musculus with 8 samples.

Results

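The genes described here make, remove or respond to reactive oxygen species (ROS): 38 mouse genes given by symbol, of which 37 had a row in the expression files. The row of each gene was found by its symbol, ignoring case, and where a symbol had several rows the one with the highest mean was used (Gss and Gstp1 had 2 each). Cyba, the membrane partner of the NADPH oxidases, was not analysed here. The whole data set held 80155 loci, 39614 of them with a gene symbol (annotated loci). RNA-seq was made from 8 male mice of the outbred Hsd:ICR(CD-1) stock, 4 taken on day 1 after birth (P1) and 4 on day 7 (P7), with 1 library per mouse. Each library came from the whole heart less the atrial appendages, and the labels name no treatment. The study compared the stages because the mouse heart loses its capacity to regenerate during the first week of life.

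Superoxide, formed by the respiratory chain and by NADPH oxidases, is turned into hydrogen peroxide by superoxide dismutases. Catalase, glutathione peroxidases and peroxiredoxins then reduce the peroxide, and the thioredoxin and glutathione systems return the electrons they use. The transcription factor NRF2 (gene Nfe2l2), held back by KEAP1, switches on many of these genes when a cell is exposed to oxidants. Heart muscle is rich in mitochondria, and its antioxidant enzymes are spread over the cytosol, the mitochondrial matrix, the secretory pathway and the space around the cells.

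The values in the files are FPKM, that is, fragments scaled to the length of the locus in kilobases and to the mapped fragments of the library, so levels of different genes are given per length. The files hold no counts. From the steps between low values of unannotated loci, 1 FPKM on 1 kb stood for about 12.3 to 19.7 fragments at P1 and for 12.8 to 15.8 at P7. The read totals in the study's supplement differ far more between the P7 libraries than these steps do, so the depth behind each value is uncertain. Annotated and unannotated loci at 1 FPKM or more numbered 28662 in P1 replicate 3 against 21382 to 22292 in the other P1 hearts and 20269 to 21880 at P7. P1 replicate 4 was the highest heart of its stage for 26 of the 37 genes (median 1.36 times the mean of the other 3) and P7 replicate 3 for 30 (median 1.30 times), while P1 replicate 3 was the lowest for 22 and P7 replicate 2 for 25. The median ratio to the geometric mean of all hearts, over 16695 annotated loci, put the same hearts highest and lowest. It was 1.165 and 0.7756 in P1 replicates 4 and 3, and 1.296 and 0.9389 in P7 replicates 3 and 2. Unannotated loci held between 33.05% (P7 replicate 3) and 72.65% (P7 replicate 4) of a heart's summed FPKM. The cardiomyocyte markers Myh6, Tnnt2, Tnni3, Actn2, Ryr2, Myl2 and Pln were above 0 in every heart, with a summed level of 14800 to 27600 FPKM in P1 and 20400 to 30200 FPKM in P7.

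Of the 37 genes, 5 carry an in-frame TGA codon, which is read as selenocysteine, the catalytic residue of these enzymes. The codon is shown here because the glutathione peroxidases fall into a form with selenocysteine and a form with cysteine at the same place. Each line gives 4 codons on either side where the coding sequence reaches that far, with the catalytic codon in capitals, from the GENCODE M21 coding sequence on GRCm38; Gpx7 and Gpx8 were aligned to Gpx4.
Gpx1: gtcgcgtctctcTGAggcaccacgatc
Gpx3: gtagccagctacTGAggtctgacagac
Gpx4: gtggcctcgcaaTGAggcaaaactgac
Gpx7: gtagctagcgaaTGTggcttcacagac
Gpx8: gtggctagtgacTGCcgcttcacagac
Txnrd1: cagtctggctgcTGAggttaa
Txnrd2: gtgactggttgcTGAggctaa
The codon is number 47 of 201 in Gpx1 (exon 1, chr9:108339451-108339453, plus strand), 73 of 226 in Gpx3 (exon 2, chr11:54907256-54907258, plus) and 129 of 253 in the longest coding transcript of Gpx4 (exon 3, chr10:80054737-80054739, plus). Gpx7 has a cysteine codon at 56 of 186 (exon 2, chr4:108403430-108403432, minus) and Gpx8 at 79 of 209 (exon 2, chr13:113045661-113045663, minus). In both thioredoxin reductases the TGA is the codon before the last, 612 of 613 in Txnrd1 (exon 15, chr10:82896037-82896039, plus) and 526 of 527 in Txnrd2 (exon 17, chr16:18477772-18477774, plus).

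Transcript levels spanned from 0.705 ± 0.128 FPKM for Sod3 to 394 ± 55 FPKM for Prdx2 in P1 (SD, n = 4), with a median over both stages of 23.7 FPKM against 5.34 FPKM for all annotated loci tested. Prdx2, a cytosolic peroxiredoxin that red cells also hold in large amounts, was the highest of the 37 in all 4 P1 and all 4 P7 hearts. In P1 it was followed by Prdx1 (302 ± 41 FPKM) and Sod1 (293 ± 28 FPKM), which overlapped heart by heart, and then by Prdx5 (184 ± 20 FPKM). In P7 Prdx5 stood second at 370 ± 113 FPKM, ahead of Sod1 (338 ± 44 FPKM) and Prdx1 (323 ± 75 FPKM), and the hearts of all 3 genes overlapped. The lowest gene was Sod3 in each P1 heart and Cybb in each P7 heart. The SD was 22.8% of the mean in the median gene in P1 and 19.0% in P7. The steadiest gene in P1 was Gclm (5.68%) and the most variable Keap1 (58.2%).

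**Figure D1:**
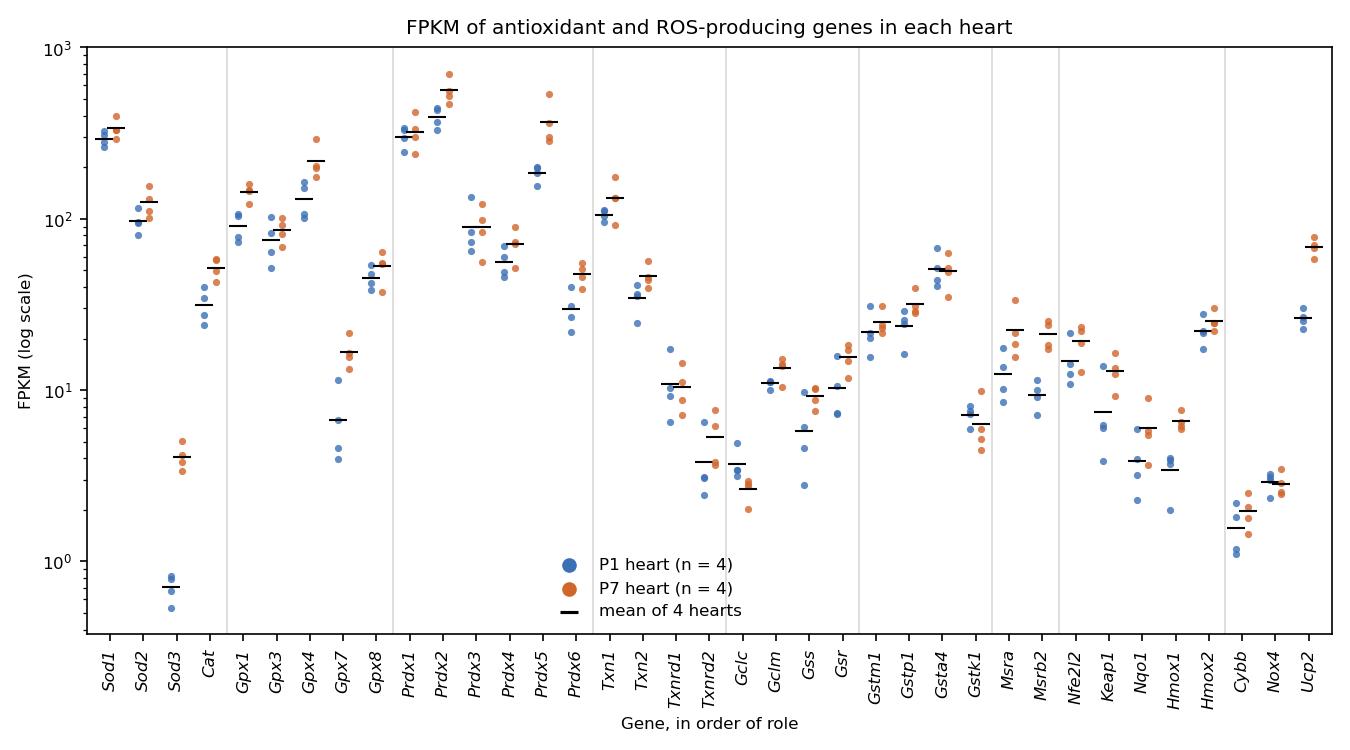
FPKM of each of the 37 genes in each heart on a log axis, in order of role with grey lines between roles; each point is 1 heart (blue P1, orange P7, 4 each) and each bar the mean of 4. Prdx2 is the highest gene at both stages, and Sod3, below 1 FPKM in every P1 heart, lies above 3 FPKM in every P7 heart.

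Between the stages, 6 of the 37 genes rose and none fell: Sod3, Ucp2, Gpx7, Msrb2, Prdx5 and Hmox1 were higher in P7. A gene was called with a Benjamini-Hochberg adjusted p under 0.05 over all 43172 loci tested, by limma on log2(FPKM + 1), together with means that differed at least 1.5-fold. That is 16.2% of the 37 genes, beside 8.14% of the 17960 annotated loci tested (7.74% higher and 0.401% lower). At an unadjusted p under 0.05 there were 15 of the 37 genes, beside 29.7% of annotated loci. Every P7 heart lay above every P1 heart in 10 genes (27% against 17.3% of annotated loci) and below in 1, Gclc (2.69% of annotated loci). The log2 fold change was above 0 in 32 of the 37 genes, beside 67.6% of annotated loci. Its median was 0.42 in the 37 genes, against 0.19 over the annotated loci.

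The count changed with the hearts used. Without P1 replicate 4, 14 of the 37 genes passed, beside 16.0% of annotated loci, and the 8 that joined were Cat, Gpx1, Gpx4, Prdx6, Gss, Gsr, Msra and Keap1. Without P7 replicate 3 only Sod3 and Ucp2 passed, beside 1.56% of annotated loci, and the same 2 remained without P1 replicate 2 or P7 replicate 1 (0.935% and 1.68% of annotated loci). Scaling each heart by the median ratio over annotated loci moved the median of those loci from 0.19 to -0.02 and that of the 37 genes to 0.16. With it 7 genes changed sign and 25 were above 0. The count called was 5, beside 11.2% of annotated loci: Sod3, Ucp2, Gpx7 and Msrb2 stayed, and Gclc was called lower. Prdx5 and Hmox1 were no longer called (limma adjusted p = 0.0531 and 0.0992). With that scaling the annotated loci called split into 1295 higher and 720 lower, against 1390 and 72 without it, and quantile normalization gave 1377 and 595.

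**Figure D2:**
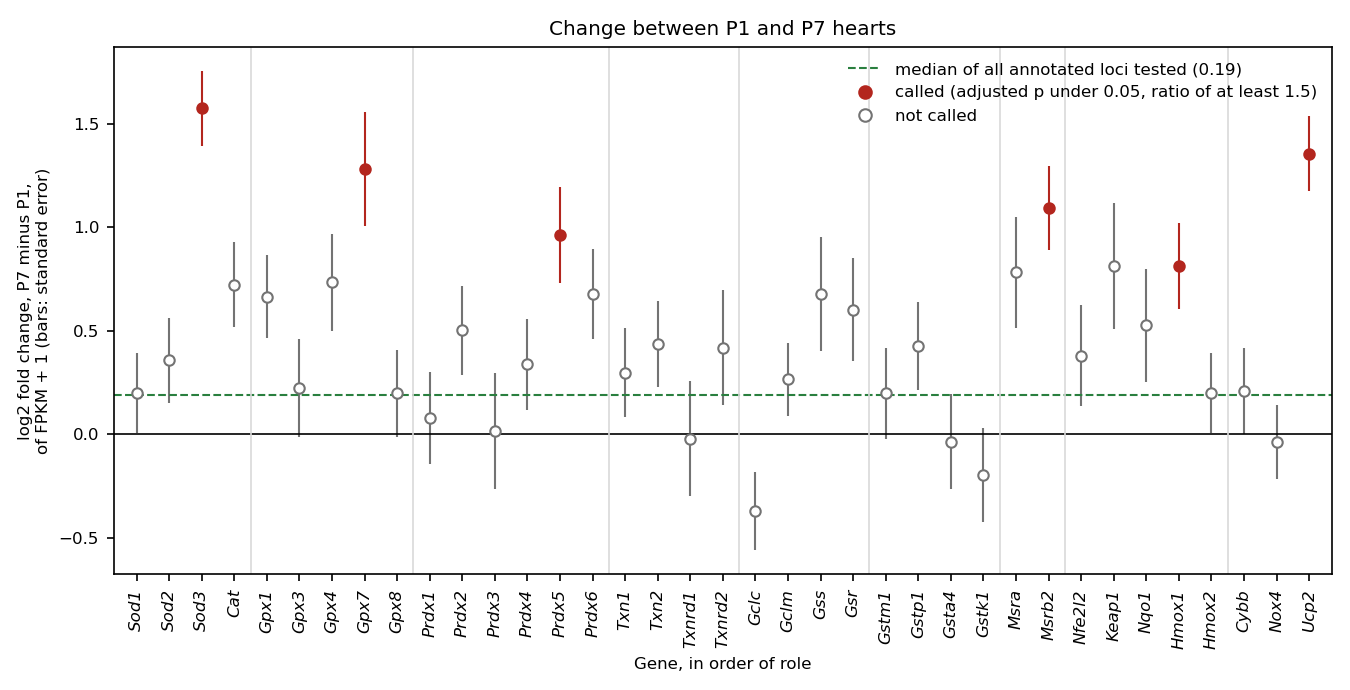
Log2 fold change (P7 minus P1, of FPKM + 1) of each gene with its limma standard error; red points are the 6 genes called and the green line is the median of all annotated loci tested, 0.19. The signs of Sod1, Gpx3, Gpx8, Prdx1, Prdx3, Gstm1 and Hmox2 turn with median-ratio scaling.

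**Figure D3:**
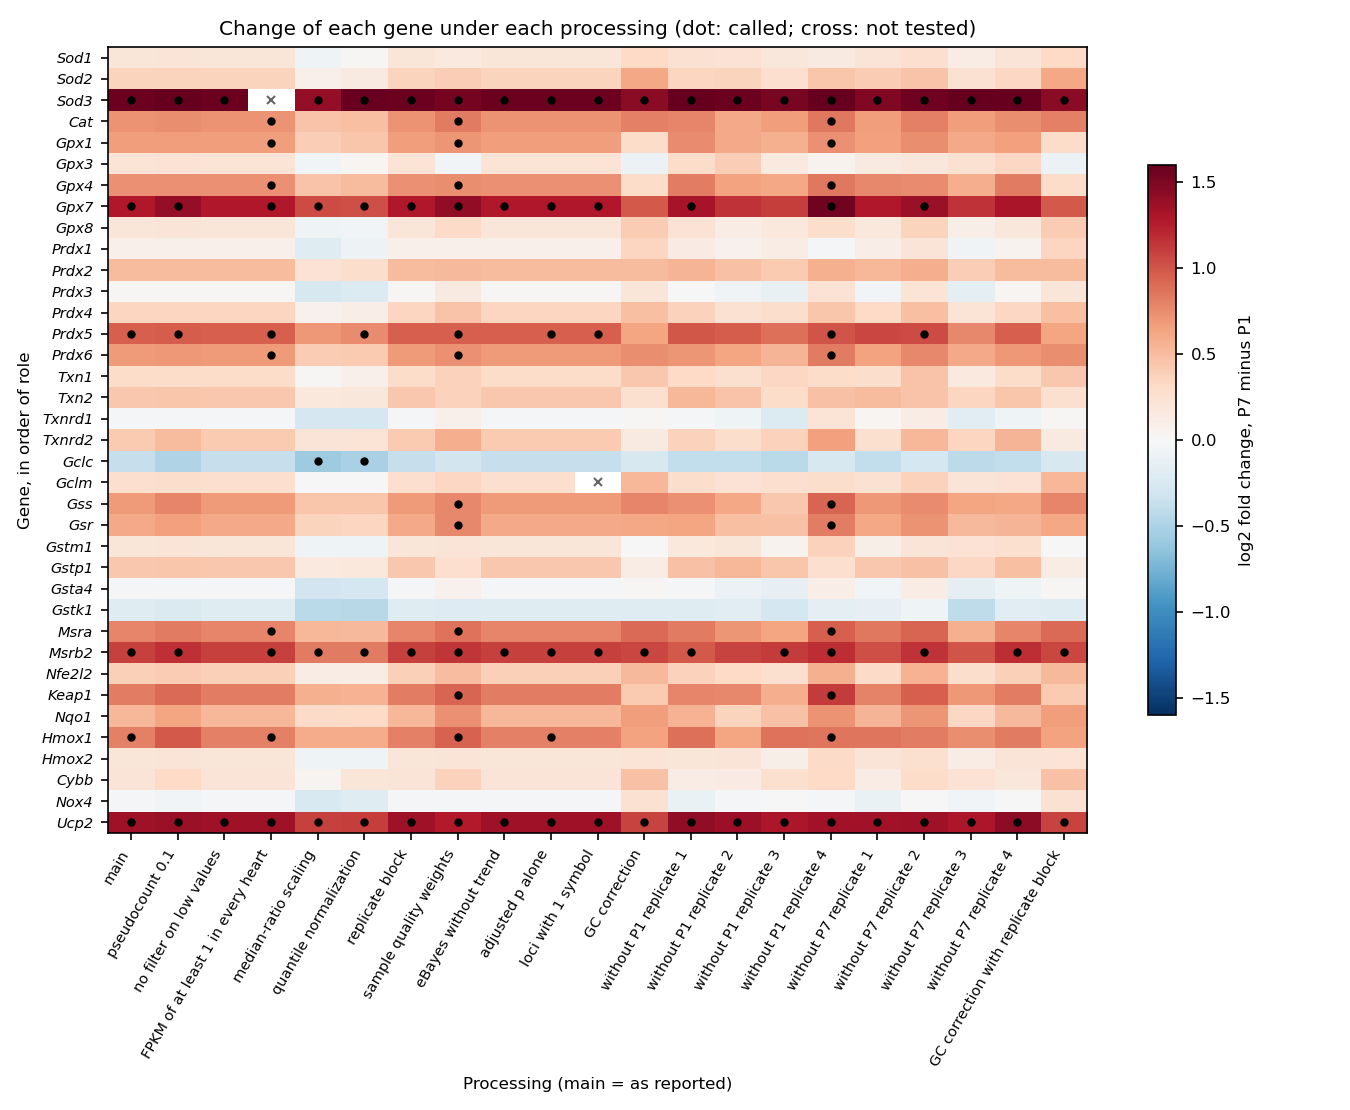
Log2 fold change (P7 minus P1; colour) of each gene (rows) under each processing (columns), with a dot where the gene was called and a cross where it was not tested. Ucp2 carries a dot in every column, Sod3 in every column in which it was tested, and the column without P1 replicate 4 has 14 dots.

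Among the superoxide dismutases and catalase, 1 of 4 rose. Sod3 (chr5:52363791-52371418, plus strand), which encodes the dismutase secreted into the extracellular matrix, was at 0.819, 0.676, 0.536 and 0.788 FPKM in P1 replicates 1 to 4 and at 5.04, 4.19, 3.78 and 3.37 FPKM in P7. The stages did not overlap, and all P1 hearts were below 1 FPKM. The ratio of means was 5.81, the largest of the 37 genes, and the log2 fold change 1.57 (SE 0.18, limma adjusted p = 0.00265), which understates a change from a level under 1 FPKM. Sod3 reached 1 FPKM, the level a locus needed to be tested, only in P7, the stage where it is high, and was called in 19 of 19 alternative processings that tested it. Sod1, the cytosolic enzyme, was at 293 ± 28 FPKM in P1 and 338 ± 44 FPKM in P7 (SD, n = 4), and Sod2, in the mitochondrial matrix, at 96.7 ± 14.7 and 125 ± 24 FPKM. Neither passed (limma adjusted p = 0.550 and 0.367), and the hearts of the 2 stages overlapped; Sod1 turned to a log2 difference of -0.07 with median-ratio scaling.

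Cat, the peroxisomal enzyme that splits hydrogen peroxide, was at 34.6, 24.0, 27.3 and 39.9 FPKM in P1 and at 57.3, 43.0, 58.0 and 49.4 FPKM in P7. The P7 hearts all lay above the P1 hearts, by 1.65 times in the means, but the log2 difference of 0.72 (SE 0.21) missed the threshold at a limma adjusted p of 0.0768. Without P1 replicate 4 that value was 0.0241, and it ranged from 0.0168 to 0.255 over all alternatives.

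Of the 5 glutathione peroxidases, Gpx7 rose and the other 4 did not pass. Gpx7 (chr4:108400390-108406961, minus strand), a cysteine enzyme of the endoplasmic reticulum, was at 6.71, 4.61, 3.97 and 11.5 FPKM in P1 and at 16.5, 13.3, 21.4 and 15.7 FPKM in P7. P1 replicate 4 stood well above the other P1 hearts yet below every P7 heart. The ratio was 2.50 and the log2 fold change 1.28 (SE 0.28, limma adjusted p = 0.0273). Gpx7 was called in 12 of 20 alternatives, and adjusting for GC content left 0.99 with a limma adjusted p of 0.0930. Gpx8, its close relative in the same compartment and the other cysteine form, was at 45.3 ± 6.7 FPKM in P1 and 52.7 ± 11.1 FPKM in P7 (limma adjusted p = 0.578), with the opposite sign under median-ratio scaling and quantile normalization.

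None of the 5 genes with a TGA codon passed, with log2 differences from -0.02 to 0.73. Gpx1, the main cytosolic enzyme, was at 107, 78.3, 73.6 and 103 FPKM in P1 and at 146, 122, 159 and 145 FPKM in P7. Gpx4, which reduces lipid peroxides in membranes, was at 152, 107, 102 and 163 FPKM in P1 and at 198, 205, 292 and 176 FPKM in P7. In both genes all P7 hearts lay above all P1 hearts, with ratios of 1.58 and 1.66 and limma adjusted p of 0.0917 and 0.112. Gpx1 and Gpx4 are GC-rich (57.2% and 60.2% of the longest transcript), and adjusting for GC content took their log2 differences from 0.66 to 0.30 and from 0.73 to 0.29. Gpx3, the secreted plasma form, was at 75.0 ± 22.3 and 85.9 ± 14.1 FPKM (limma adjusted p = 0.577), and its sign turned with scaling, with sample weights and with GC correction.

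Of the 6 peroxiredoxins only Prdx5 passed. Prdx5 (chr19:6906697-6910106, minus strand), found in mitochondria, peroxisomes and cytosol, was at 197, 185, 155 and 199 FPKM in P1 and at 285, 299, 532 and 362 FPKM in P7. The 2 ranges were apart, and P7 replicate 3 was far above the other P7 hearts. The ratio was 2.01 and the log2 fold change 0.96 (SE 0.23, limma adjusted p = 0.0399). It was called in 8 of 20 alternatives, with a limma adjusted p of 0.0950 without P7 replicate 3 and 0.189 after GC correction. The gene overlaps Trmt112 on the other strand, which has a value of its own in the files; how the counting treated strand is not given in the sources used here.

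Prdx3, the peroxiredoxin of the mitochondrial matrix alone, was at 83.9, 73.0, 64.8 and 134 FPKM in P1 and at 98.1, 55.6, 122 and 83.9 FPKM in P7. Its means were nearly equal, 89.0 and 89.8 FPKM, and P1 replicate 4 was the highest of all 8 hearts. Prdx2 was higher in every P7 heart (465 to 703 FPKM against 330 to 446 FPKM), a ratio of 1.42 that did not pass (limma adjusted p = 0.236), while the summed red cell markers ranged over 1640 to 3850 FPKM in P1 and 3750 to 5030 FPKM in P7. Prdx6, which uses glutathione in place of thioredoxin, was at 21.97 to 40.1 FPKM in P1 and 38.8 to 55.5 FPKM in P7 (ratio 1.6, limma adjusted p = 0.110). Prdx1, cytosolic, and Prdx4, of the endoplasmic reticulum, differed by log2 0.08 and 0.34 (limma adjusted p = 0.844 and 0.409), and Prdx1 and Prdx3 turned negative with median-ratio scaling (-0.19 and -0.26). Pseudogenes named after Prdx6, Gpx4 and thioredoxin 1 are annotated, so reads could be split with them.

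None of the 4 genes of the thioredoxin system passed. Txn1 and Txn2, the cytosolic and mitochondrial thioredoxins, were at 106 ± 7 and 34.3 ± 6.9 FPKM in P1 and at 133 ± 34 and 46.3 ± 7.2 FPKM in P7 (SD, n = 4). Txnrd1 and Txnrd2 encode the reductases that recharge them in the cytosol and in mitochondria. Txnrd1 was at 10.3, 9.23, 6.48 and 17.3 FPKM in P1 and at 8.79, 7.19, 14.4 and 11.1 FPKM in P7. Its hearts overlapped fully, and its log2 difference of -0.02 became 0.21 without P1 replicate 4, the highest heart. Txnrd2 was at 3.07, 2.43, 3.12 and 6.51 FPKM in P1 and at 7.60, 3.81, 6.14 and 3.65 FPKM in P7 (limma adjusted p = 0.419).

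None of the 4 genes of glutathione synthesis and reduction passed. Glutamate cysteine ligase, the first enzyme, has a catalytic subunit (Gclc) and a modifier subunit (Gclm). Gclc (chr9:77754535-77794485, plus strand) was at 3.40, 3.42, 3.14 and 4.91 FPKM in P1 and at 2.75, 2.01, 2.94 and 2.81 FPKM in P7. It was the only gene of the 37 with every P7 heart below every P1 heart, beside 2.69% of annotated loci. The log2 difference of -0.37 (SE 0.19) did not pass (limma adjusted p = 0.318). With median-ratio scaling it was -0.57 and with quantile normalization -0.52, and both passed (limma adjusted p = 0.0257 and 0.0486).

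Gclm was at 11.2, 10.004, 11.1 and 11.4 FPKM in P1 and at 13.9, 10.5, 15.1 and 14.3 FPKM in P7. Of its P7 hearts 3 lay above all P1 hearts and P7 replicate 2 did not, and the log2 difference was 0.27 (SE 0.18, limma adjusted p = 0.420). Its row also carries the symbol of the processed pseudogene Gm6061. Gss, the ligase of the second step, and Gsr, which recycles oxidized glutathione, had ratios of 1.59 and 1.52 with overlapping hearts (limma adjusted p = 0.217 and 0.219). Without P1 replicate 4 both passed (limma adjusted p = 0.0318 and 0.0356), while the limma adjusted p rose to 0.404 and 0.453 without P1 replicate 2.

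None of the 4 glutathione transferases, which join glutathione to electrophiles, passed. Gsta4, which acts on the lipid peroxidation product 4-hydroxynonenal, was the highest at 50.8 ± 11.9 FPKM in P1 and 49.6 ± 11.6 FPKM in P7 (SD, n = 4), a log2 difference of -0.04 that was 0.02 after GC correction. Gstp1 (23.8 and 32.0 FPKM) and Gstm1 (21.97 and 24.9 FPKM) differed by log2 0.43 and 0.20, and Gstm1 turned negative with median-ratio scaling. Gstp1 shares its printed span with its paralog Gstp2, so the split of reads between them is uncertain. Gstm1 has paralogs at separate loci nearby, and how reads were split among them was not tested. Gstk1, in mitochondria and peroxisomes, was at 5.89 to 8.03 FPKM in P1 and 4.46 to 9.89 FPKM in P7 (log2 difference -0.20, limma adjusted p = 0.609).

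The methionine sulfoxide reductases repair oxidized methionine in proteins, Msra for the S form and Msrb2 for the R form in mitochondria. Msrb2 (chr2:19371440-19394976, plus strand) was at 7.12, 9.10, 9.96 and 11.4 FPKM in P1 and at 23.8, 18.2, 25.2 and 17.4 FPKM in P7. No P7 heart came near the P1 range. The ratio was 2.25 and the log2 fold change 1.09 (SE 0.20, limma adjusted p = 0.0172), called in 16 of 20 alternatives, GC correction among them. Msra was at 13.6, 10.2, 8.57 and 17.6 FPKM in P1 and at 18.5, 15.6, 33.8 and 21.4 FPKM in P7, where P1 replicate 4 overlapped the P7 range. Its ratio of 1.79 did not pass (limma adjusted p = 0.138), and without P1 replicate 4 it did (0.0462 by limma; 0.0402 to 0.330 over all alternatives).

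Of NRF2, KEAP1 and 3 genes grouped with them, Hmox1 rose and the others did not pass. Hmox1 (chr8:75093621-75100589, plus strand), the inducible heme oxygenase, was at 4.01, 1.99, 3.90 and 3.72 FPKM in P1 and at 5.96, 6.54, 7.67 and 6.21 FPKM in P7. All P7 hearts were above all P1 hearts, and P1 replicate 2 was low. The ratio was 1.94 and the log2 fold change 0.81 (SE 0.21, limma adjusted p = 0.0487). This was the weakest of the 6 calls, kept in 4 of 20 alternatives, with a limma adjusted p from 0.0144 to 0.207 over them and of 0.168 without P1 replicate 2. Hmox2, the constitutive enzyme, was at 22.1 ± 4.3 and 25.4 ± 3.3 FPKM (limma adjusted p = 0.551), and its sign turned with median-ratio scaling and quantile normalization.

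Nfe2l2 was at 14.1, 12.4, 10.9 and 21.5 FPKM in P1 and at 22.2, 12.8, 23.3 and 18.9 FPKM in P7. The ranges overlapped through P1 replicate 4 and P7 replicate 2, and the log2 difference of 0.38 did not pass (limma adjusted p = 0.408). Keap1 was at 6.29, 5.997, 3.83 and 13.8 FPKM in P1 and at 13.4, 9.20, 16.5 and 12.5 FPKM in P7. The 3 lower P1 hearts were below every P7 heart, with a log2 difference of 0.81 (SE 0.30, limma adjusted p = 0.174) that was 1.12 without P1 replicate 4 (limma adjusted p = 0.0147), 0.59 without P1 replicate 3 (0.330) and 0.42 after GC correction (0.454). Nqo1, a quinone reductase often used as a readout of NRF2, was at 2.29 to 5.96 FPKM in P1 and 3.67 to 8.95 FPKM in P7 (limma adjusted p = 0.321).

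NRF2 binds the antioxidant response element, whose core TGACNNNGC was searched on both strands in RefSeq promoter windows of GRCm38.p6 from 250 bases before to 50 after each start. It was found in 7 of the 31 genes of the list with a window (22.6%) and in 3781 of 27025 genes in all (14.0%). These matches are letters in a window and not shown to be bound. The capitals mark the core, and each line runs along the strand of the gene, where a core on the opposite strand reads GCNNNGTCA.
Gclm: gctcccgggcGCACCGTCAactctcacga
Msrb2: cccgttggtgGCAGCGTCAtg
Nfe2l2: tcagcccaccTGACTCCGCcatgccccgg
Prdx1: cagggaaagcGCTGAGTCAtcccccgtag
Sod1: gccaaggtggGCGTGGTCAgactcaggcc
Txnrd1: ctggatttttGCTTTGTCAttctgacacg
Ucp2: ccctggctccGCCTCGTCAcgccacgccc
They lie at chr3:122245413-122245441 (Gclm), chr2:19371665-19371685 (Msrb2), chr2:75704885-75704913 (Nfe2l2, minus strand), chr4:116685456-116685484 (Prdx1), chr16:90220696-90220724 (Sod1), chr10:82859104-82859132 (Txnrd1) and chr7:100493282-100493310 (Ucp2). Of these 7 genes, 2 were called, Msrb2 and Ucp2, beside 16.2% of the 37 genes and 8.14% of annotated loci. A link between a match and a rise was not tested. Sod3, Prdx6, Gclc, Gsr, Gsta4, Msra and Hmox1 had no window in the table.

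The oxidase genes were among the lowest of the list and neither passed. Cybb, which encodes the catalytic subunit of the phagocyte NADPH oxidase, was at 1.10, 1.18, 1.82 and 2.20 FPKM in P1 and at 2.51, 1.44, 1.80 and 2.09 FPKM in P7 (limma adjusted p = 0.556). Nox4, an oxidase that releases hydrogen peroxide, was at 2.36, 2.99, 3.24 and 3.09 FPKM in P1 and at 3.45, 2.53, 2.85 and 2.48 FPKM in P7. Its log2 difference was -0.04 (SE 0.18, limma adjusted p = 0.913), and it had the opposite sign after GC correction (0.25) and when P1 replicate 3 or replicate 2 or 4 of P7 was left out.

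Ucp2 (chr7:100493337-100502020, plus strand), a carrier of the inner mitochondrial membrane that is linked to lower ROS production, was at 30.1, 26.8, 22.8 and 25.3 FPKM in P1 and at 70.2, 67.5, 78.7 and 58.6 FPKM in P7. The stages were far apart, and the spread within each was small (SD of 3.06 and 8.26 FPKM around means of 26.2 and 68.7 FPKM). The ratio was 2.62 and the log2 fold change 1.36 (SE 0.18, limma adjusted p = 0.00553). It was called in 20 of 20 alternatives, with log2 values from 1.09 to 1.43. Ucp2, Sod1, Gpx8, Prdx2, Txnrd2, Gss and Hmox2 overlap a protein-coding gene on the other strand, as Prdx5 does, and Txnrd1, Gclm, Msra and Keap1 a noncoding transcript there. Ucp3, its muscle relative from a wider list of these pathways, rose from 1.91, 1.42, 0.769 and 3.99 FPKM to 6.41, 6.78, 5.86 and 7.82 FPKM (log2 fold change 1.45, SE 0.27, limma adjusted p = 0.0185), and its ratio to Ucp2 overlapped between stages (0.0338 to 0.157 against 0.0745 to 0.133).

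Grouped by the place where the proteins work, 2 of 7 mitochondrial genes were called (Msrb2 and Ucp2), 2 of 5 genes of the secretory pathway or extracellular space (Sod3 and Gpx7), and 2 of 22 genes of the cytosol or of several places (Prdx5 and Hmox1), beside 8.14% of annotated loci. The peroxisomal gene (Cat) and the 2 membrane oxidases were not called. The median log2 difference was 0.42, 0.34 and 0.46 in the first 3 groups. No test was made between them. Gstk1, also peroxisomal, was counted as mitochondrial, and Prdx5, partly mitochondrial, under several places.

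Within a heart, the ratio of 2 genes does not depend on how the library was scaled. GC content can still affect it, and the ratios were not corrected for GC. Of 15 such ratios, chosen after values were seen and given as a description, 7 were higher in every P7 heart, none was lower and 8 overlapped. Apart from Gclm over Gclc, each of the 7 set a gene called higher over 1 that was not called. Their separation is therefore no support beyond the calls. Gclm over Gclc was 3.30, 2.93, 3.55 and 2.31 in P1 and 5.05, 5.20, 5.15 and 5.07 in P7, means of 3.02 ± 0.54 and 5.11 ± 0.07 (SD, n = 4). The P7 ratios were nearly equal although their Gclm levels ran from 10.5 to 15.1 FPKM. The difference of the means stayed between 1.86 and 2.27 when each heart was left out in turn.

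Prdx5 over Prdx3 was 2.19 ± 0.48 in P1 and 4.24 ± 1.02 in P7, and Prdx5 over Prdx1 was 0.623 ± 0.141 and 1.14 ± 0.15 (SD, n = 4). Gpx7 over Gpx8 was 0.143 ± 0.052 in P1 and 0.320 ± 0.031 in P7. Hmox1 over Hmox2 was 0.159 ± 0.059 and 0.261 ± 0.023. In each of these the P7 hearts lay above all P1 hearts. Prdx5 and Gpx7 are richer in GC (56.4% and 55.5%) than Prdx1, Prdx3 and Gpx8 (42.3%, 45.5% and 44.3%). GC correction lowered the log2 differences of Prdx5 to 0.63 and of Gpx7 to 0.99. It raised those of Prdx1, Prdx3 and Gpx8 to 0.34, 0.20 and 0.41. Hmox1 and Hmox2 (53.3% and 49.9%) moved to 0.64 and 0.22. Gclm (42.1%) is poorer in GC than Gclc (47.7%), and their corrected values were 0.53 and -0.25. The mitochondrial and cytosolic forms kept overlapping ratios, with Sod2 over Sod1 at 0.334 ± 0.074 and 0.367 ± 0.031, Txn2 over Txn1 at 0.326 ± 0.072 and 0.360 ± 0.081, and Txnrd2 over Txnrd1 at 0.354 ± 0.097 and 0.538 ± 0.233.

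**Figure D4:**
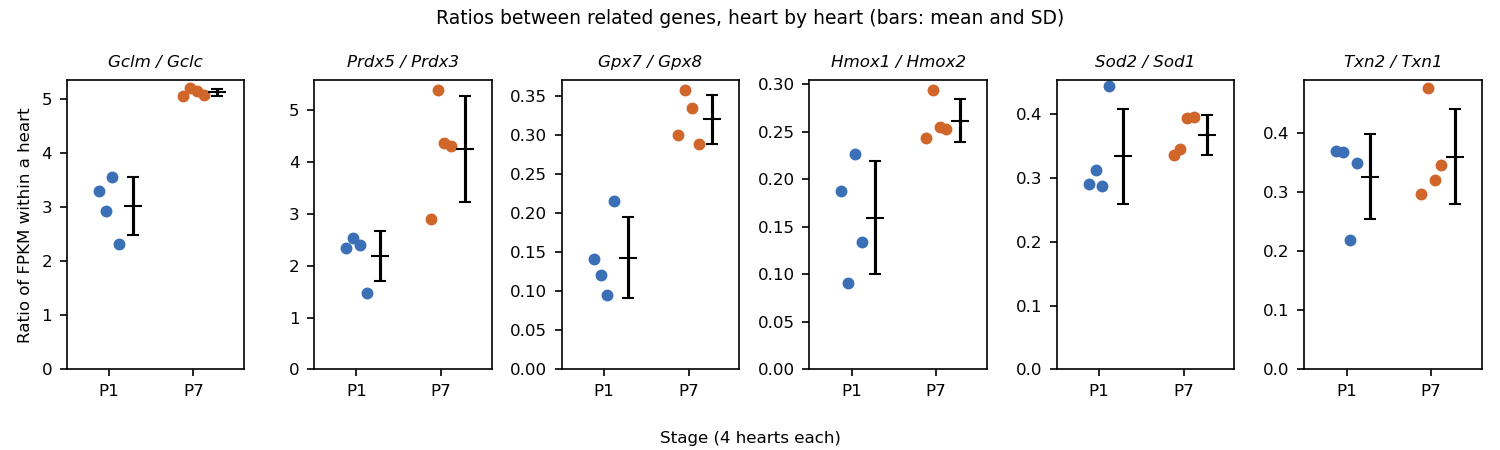
Ratio of FPKM of 2 related genes within each heart for 6 of the 15 ratios (points, 4 hearts per stage; bars, mean and SD; axes start at 0). The ratios were not corrected for GC content. Gclm over Gclc lies between 5.05 and 5.20 in the P7 hearts and between 2.31 and 3.55 in the P1 hearts, while Sod2 over Sod1 and Txn2 over Txn1 overlap.

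The wider list, 88 further genes of the same pathways, had a row for every gene, of which 71 reached 1 FPKM in at least 1 heart and 17 did not. Of the 71, 9 rose (12.7% against 8.14% of annotated loci) and none fell, with a median log2 difference of 0.36. The count was 0 without P1 replicate 2 or P7 replicate 1 (0.935% and 1.68% of annotated loci), 1 without P7 replicate 3 (1.56%), 2 without P1 replicate 3 (2.39%), 5 without P1 replicate 1 (4.6%) or P7 replicate 4 (4.06%) and 16 without P1 replicate 4 (16.0%). Beside Ucp3, the genes that rose were partners and regulators of NRF2, transferases, a biliverdin reductase and the copper chaperone of Sod1.

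Among 9 NRF2 partners and regulators tested, 4 rose, beside 7.74% of annotated loci. The list was chosen with earlier results of these data known, so the count is a description and not a test. None of the 4 was called after GC correction, without P1 replicate 2 or without P7 replicate 1. Nfe2l1, a related transcription factor, went from 48.0 ± 20.8 to 99.9 ± 20.96 FPKM (SD, n = 4; limma adjusted p = 0.0468). The small MAF proteins, with which NRF2 pairs on DNA, went from 8.26 ± 1.47 to 15.4 ± 2.9 FPKM for Mafk (limma adjusted p = 0.0387) and from 8.08 ± 1.05 to 15.7 ± 2.3 FPKM for Mafg (limma adjusted p = 0.0233), a row that also carries the symbol Sirt7. Sqstm1, an autophagy adaptor that takes up KEAP1, was at 67.0, 52.3, 26.8 and 156 FPKM in P1 and at 281, 160.5, 255 and 188 FPKM in P7, a ratio of 2.93 (log2 fold change 1.78, SE 0.41, limma adjusted p = 0.0350) in which P1 replicate 4 reached just under the lowest P7 heart.

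The transferases Gsto1 and Gstt1 rose from 19.9 ± 3.2 to 42.4 ± 9.998 FPKM and from 0.780 ± 0.347 to 2.81 ± 0.68 FPKM (SD, n = 4; limma adjusted p = 0.0217 and 0.0190). Blvrb, a biliverdin reductase, rose from 11.1 ± 3.5 to 24.6 ± 4.9 FPKM (limma adjusted p = 0.0257), and Ccs, the copper chaperone of Sod1, from 9.53 ± 1.62 to 17.9 ± 4.6 FPKM (limma adjusted p = 0.0487). After GC correction only Gsto1 and Ucp3 of the 9 passed.

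In 4 groups no gene passed. The glutaredoxins and thioredoxin-related proteins (10 tested) were led by Txnip, which binds thioredoxin, at 133 ± 88 and 242 ± 52 FPKM, and by Txndc12 at 77.3 ± 6.5 and 100.4 ± 15.6 FPKM (limma adjusted p = 0.147 and 0.319). In the group of sulfiredoxin, sestrins, metallothioneins and further methionine sulfoxide reductases (9 tested), Mt1 was at 120.2 ± 12.7 and 140.8 ± 51.2 FPKM and Msrb3 at 70.2 ± 19.4 and 59.5 ± 14.4 FPKM. In NADPH supply (8 tested), the mitochondrial enzymes Idh2 and Nnt had limma adjusted p of 0.253 and 0.271. Of 12 other NADPH oxidase genes only Ncf1, Ncf4 and Nox1 reached 1 FPKM in any heart, with log2 differences of -0.02, 0.30 and -0.16.

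**Figure D5:**
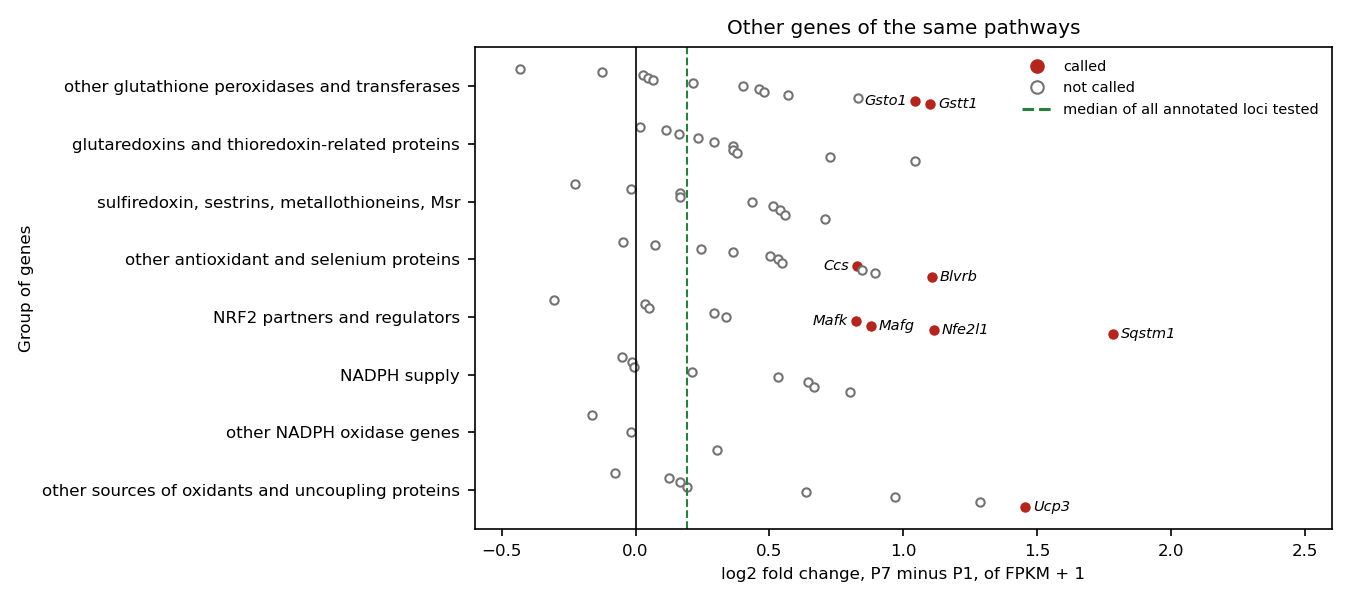
Log2 fold change (P7 minus P1, of FPKM + 1) of the 71 tested genes of the wider list, by group; red points with names are the 9 genes called and the green line is the median of annotated loci, 0.19. Of these 9, 4 stand in the group of NRF2 partners and regulators, and 7.74% of all annotated loci tested rose. The list was chosen with earlier results of these data known.

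In whole hearts, a change in the number of cells of a type and a change in RNA per cell cannot be told apart. Of 8 fibroblast markers, 5 rose (Col1a1, Col3a1, Dcn, Lum and Tcf21), beside 7.74% of annotated loci. Each of these 5 was called in 2 to 5 of the 8 fits with 1 heart left out. After GC correction Col1a1 was not called (limma adjusted p = 0.193), while the others were. The summed level of the 8 markers was 859 to 1760 FPKM in P1 and 1850 to 2340 FPKM in P7, without overlap. Of 13 macrophage and leukocyte markers tested, 1 rose (Lyz2), with sums of 68.1 to 82.8 and 81.8 to 125 FPKM. Endothelial markers rose in 2 of 6 cases (Cdh5 and Tie1; sums 91.0 to 153 and 124 to 189 FPKM), smooth muscle and pericyte markers rose in 1 (Pdgfrb) and fell in 1 (Cnn1) of 6, and Dbh rose among 3 nerve and Schwann cell markers, whose sums did not overlap either (3.59 to 5.22 and 7.15 to 11.0 FPKM). None of 7 cardiomyocyte, 9 red cell and 5 cycling cell markers passed; Hbb-y, Hbb-bh1 and Th were at 0 in at least 1 heart. Sod3, Gpx7, Hmox1 and the other genes that rose were measured in the same hearts, and the part of these cell types in their values was not tested.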

How the data were processed

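RNA of 8 hearts (4 P1, 4 P7, separate mice by the labels) was depleted of ribosomal RNA, made into libraries with a ScriptSeq kit and sequenced in pairs. The authors had the reads aligned by a provider to GRCm38, with features from Ensembl, and deposited the normalized sums as FPKM; the aligner and the strand setting of the counting are not given in the sources used here. Several loci can share 1 printed span, so gene positions are those of GENCODE M21.

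The 43172 loci that reached 1 FPKM in any heart were compared on log2(FPKM + 1) with limma 3.58.1 in R 4.3.3 (lmFit, eBayes with trend, no covariates), with Benjamini-Hochberg adjustment over all of them. The study's thresholds were used for calls: adjusted p under 0.05, means differing at least 1.5-fold. P-values measure the spread between 4 mice per stage. The fit was tested on simulated data. Fragments per FPKM were read from unannotated loci of 1 to 2 kb. Sequences were read with Biopython 1.88.

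The genes, the wider list and the marker lists were chosen with earlier results of these data known. Named were all genes of the list, the called genes of the wider list and, in groups with none called, its 2 highest (in the NADPH oxidase group, all 3 tested). Alternatives were quantile normalization, scaling by median ratios, weights per sample, a replicate block, a pseudocount of 0.1, the filter dropped or asked of all hearts, no eBayes trend, no fold threshold, rows with 1 symbol, GC correction (lowess, span 0.3; GC content known for 85.9% of annotated loci tested) and each heart left out. GC correction with the block, and ratios with hearts left out, were added after seeing the data.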

Additional observations from a re-analysis of the deposited data

Results flagged for a closer look

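In 4 of 92 groups of 4 hearts looked at (each stage of the 37 genes and of the 9 called genes of the wider list), 1 heart lay further from its nearest neighbour, relative to the range of the group, than Dixon's 95% critical value for 4 samples; chance alone gives about 1 in 20 groups, or 4.6 of 92. All 4 were P1 hearts. In P1 replicate 4, Txnrd2 was at 6.51 FPKM against 2.43 to 3.12 FPKM in the other P1 hearts (0.832), and Gclc at 4.91 against 3.14 to 3.42 FPKM (0.843). In P1 replicate 2, Gclm was at 10.004 against 11.1 to 11.4 FPKM (0.835), and Hmox1 at 1.99 against 3.72 to 4.01 FPKM (0.856). Hmox1 was not called without that heart (log2 fold change 0.64, limma adjusted p = 0.168), nor when any of 6 other hearts was left out (0.0725 to 0.144), and was called without P1 replicate 4 (0.0348).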

How the results depend on the processing

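The count of 6 genes was 2 with no filter (0.583% of annotated loci called), 10 with 1 FPKM in every heart (20.2%; Sod3 not tested), 14 with sample weights (16.4%), 3 with GC correction, alone (2.3%) or with the replicate block (2.14%), and 2 to 14 with 1 heart left out (0.935% to 16%). The count of 9 in the wider list was 0, 15, 19 and 2 under these settings in the same order (2 also for GC correction with the block), and 0 to 16 with 1 heart left out. The replicate block gave 4 and 6 (5.86%). In their deviations from the stage mean, same-numbered hearts correlated between -0.10 and 0.12. Of 4 hearts in each stage, 1 correlated best with its own number. With 4 hearts per stage, these values cannot decide whether hearts of the same number shared a batch or litter. Median-ratio scaling turned Sod1 (-0.073), Gpx3 (-0.046), Gpx8 (-0.070), Prdx1 (-0.195), Prdx3 (-0.255), Gstm1 (-0.063) and Hmox2 (-0.064); quantile normalization turned Gpx8 (-0.047), Prdx1 (-0.083), Prdx3 (-0.213), Gstm1 (-0.070) and Hmox2 (-0.069). Sample weights turned Gpx3 (-0.045), Txnrd1 (0.082) and Gsta4 (0.068), and GC correction, with or without the block, Gpx3 (-0.092), Txnrd1 (0.017), Gsta4 (0.023) and Nox4 (0.248). Leaving out each heart in turn gave ranges that crossed 0 for Prdx1 (-0.057 to 0.212), Prdx3 (-0.148 to 0.231), Txnrd1 (-0.217 to 0.214), Gsta4 (-0.159 to 0.120) and Nox4 (-0.110 to 0.0076). None of the 10 genes that turned was called in any setting. The causes were not tested. Depth, which is uncertain here, limits the genes near 1 FPKM, Cybb and Sod3 in P1, most.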
